A study of Mus musculus with 9 samples.

Results

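The rows Eif3c, Gm25579, Cln3 and Il27 are 4 neighbouring minus-strand genes on mouse chromosome 7, and they are 4 of the 53379 rows in the count table. They were chosen by name with their values already known, mainly those of DON against untreated cells, so that contrast is described for them here and not tested. RNA was sequenced from MOVAS cells, which are smooth muscle cells of the mouse aorta kept as an immortal line, labelled with a C57BL/6 genotype. The 3 conditions of 24 h were 50 mM DON with 2 mM glutamate, 50 mM DON alone, and no treatment, with 3 libraries in each. DON is a glutamine analogue that blocks enzymes using glutamine, and the labels call it a glutaminase inhibitor. Its doses are given as labelled. All 3 conditions shared a medium with serum, geneticin and penicillin/streptomycin. MOVAS is 1 line, and the labels do not say whether the libraries are separate cultures, so the errors below may be technical.

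Eif3c encodes a core subunit of eIF3, the factor that holds the small ribosomal subunit ready for translation initiation. Gm25579 is a predicted small nuclear RNA gene. Cln3 encodes a lysosomal membrane protein whose loss causes juvenile neuronal ceroid lipofuscinosis, a childhood neurodegenerative disease, in humans. Il27 encodes the p28 subunit of the cytokine interleukin 27, which pairs with Ebi3 and is known mainly from macrophages and dendritic cells. On the plus strand lies Apobr, a receptor for apolipoprotein B48 that takes up triglyceride-rich lipoproteins and is known from macrophages.

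The rows span 48.5 kb of chromosome 7 in mm10. By GENCODE M21, Eif3c lies at 126546455 to 126566411, Gm25579 at 126567044 to 126567149, Cln3 at 126571207 to 126585817 and Il27 at 126589010 to 126594941. Gaps of 632 bp between Eif3c and Gm25579, 4057 bp between Gm25579 and Cln3, and 3192 bp between Cln3 and Il27 separate them. Apobr occupies 126584942 to 126589112 on the plus strand. A coding exon of Apobr covers 442 bp of the most 5' annotated exon of Cln3, at 126585376 to 126585817, which is 7.65% of the 5781 bp of Cln3 exons. The tail of Apobr, all of it UTR, covers 103 bp of the last exon of Il27, at 126589010 to 126589112, or 10.1% of its 1021 bp. Eif3c and Gm25579 overlap nothing annotated on the plus strand: Eif3c ends 18531 bp and Gm25579 17793 bp before the start of Apobr, and the nearest plus-strand gene on the other side, Tufm, ends 55.7 kb from Eif3c.

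Promoter windows from RefSeq (GRCm38.p6, the assembly of mm10) were available for Eif3c, Cln3 and Apobr, 3 of the 5 genes looked up, each with 250 bases before and 50 after a start. They are shown because these annotated starts are where transcripts of either strand could begin within the span. Each is written 5' to 3' on the strand of its gene, with capitals for any match, on either strand, to the motifs TGATGNAA (the core of the C/EBP-ATF response element), TGACGTCA (cAMP response element) or CACGTG (E-box core). CACGTG was added after the sequences had been read.
Eif3c, chr7:126566317-126566616, minus strand: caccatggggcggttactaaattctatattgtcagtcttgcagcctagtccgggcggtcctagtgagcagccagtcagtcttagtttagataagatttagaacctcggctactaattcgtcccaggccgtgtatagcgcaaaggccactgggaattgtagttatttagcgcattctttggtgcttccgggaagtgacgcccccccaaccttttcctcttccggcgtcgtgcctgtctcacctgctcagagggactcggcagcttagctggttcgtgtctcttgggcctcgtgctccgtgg
Cln3, chr7:126583187-126583486, minus strand: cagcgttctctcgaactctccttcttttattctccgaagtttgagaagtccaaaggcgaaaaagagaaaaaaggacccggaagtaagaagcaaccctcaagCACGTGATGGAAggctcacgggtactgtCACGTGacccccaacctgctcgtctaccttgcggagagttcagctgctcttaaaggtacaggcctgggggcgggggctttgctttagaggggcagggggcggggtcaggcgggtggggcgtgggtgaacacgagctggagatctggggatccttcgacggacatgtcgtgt
Apobr, chr7:126584758-126585057, plus strand: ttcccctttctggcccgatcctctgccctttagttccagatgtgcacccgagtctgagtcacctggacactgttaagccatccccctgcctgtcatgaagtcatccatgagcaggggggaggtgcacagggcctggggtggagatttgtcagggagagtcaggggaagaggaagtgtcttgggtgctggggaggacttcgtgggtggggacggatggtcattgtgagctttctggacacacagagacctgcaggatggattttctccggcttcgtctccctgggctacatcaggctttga

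The Cln3 window held 1 TGATGNAA match beginning 145 bases before the start and 2 CACGTG cores beginning 149 and 121 bases before it. The first CACGTG and the TGATGNAA match share 2 bases. Among 32851 promoter windows of the same length, 3.97% held TGATGNAA, 1.79% TGACGTCA and 7.15% CACGTG. The windows of Eif3c and Apobr, and another Cln3 window at chr7:126585768-126586067, held 0 matches to the 3 motifs. These matches describe letters in the windows only.

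Libraries held from 1132822 to 1342286 counts, the lowest being DON plus glutamate replicate 3. Rows facing an exon, coding or UTR, of a protein-coding gene on the other strand took 88.0% ± 0.40 of the counts (SD, n = 9 libraries). They were 10.2% of the table. Rows with nothing annotated opposite, and not within 5000 bp beyond the end of a gene on the other strand, were 60.8% of the table. They took 1.25% ± 0.13. Rows with nothing opposite but within that distance were 11.3% and took 2.27% ± 0.12. The counts of a row can therefore come largely from the other strand, and the strand setting of the counting is not given in the sources used here. Counts below are named by row, and whether they are reads of the row's own gene or of plus-strand RNA cannot be told apart. Of 8 smooth muscle marker rows, Tagln had 68 to 104 counts per library, facing an exon of Gm48529, Cald1 had 7 to 33 and Acta2 1 to 14. The other 5, Myh11, Cnn1, Smtn, Myocd and Des, had 0 to 3.

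In cells given DON, all 4 rows held more counts than in untreated cells, with or without glutamate. Summed over the 4 rows, DON plus glutamate libraries held 217 to 329 counts, DON libraries 326 to 363 and untreated libraries 61 to 75. In CPM (counts scaled to a common library size, with TMM to correct for composition) the sum was 225 ± 29.3 with DON plus glutamate, 262 ± 17.0 with DON and 53.5 ± 6.03 without treatment (SD, n = 3 each). A row's counts reflect RNA per library, so more cells with a transcript and more RNA per cell cannot be told apart. All 4 rows passed the filter on low counts. Gm25579 and Il27 had at most 5 counts in any untreated library. They passed only through treated libraries, so they could not have been in the test without a difference. Gm25579 needed the DON libraries: with only DON plus glutamate and untreated libraries it did not pass, while Il27 did.

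**Figure D1:**
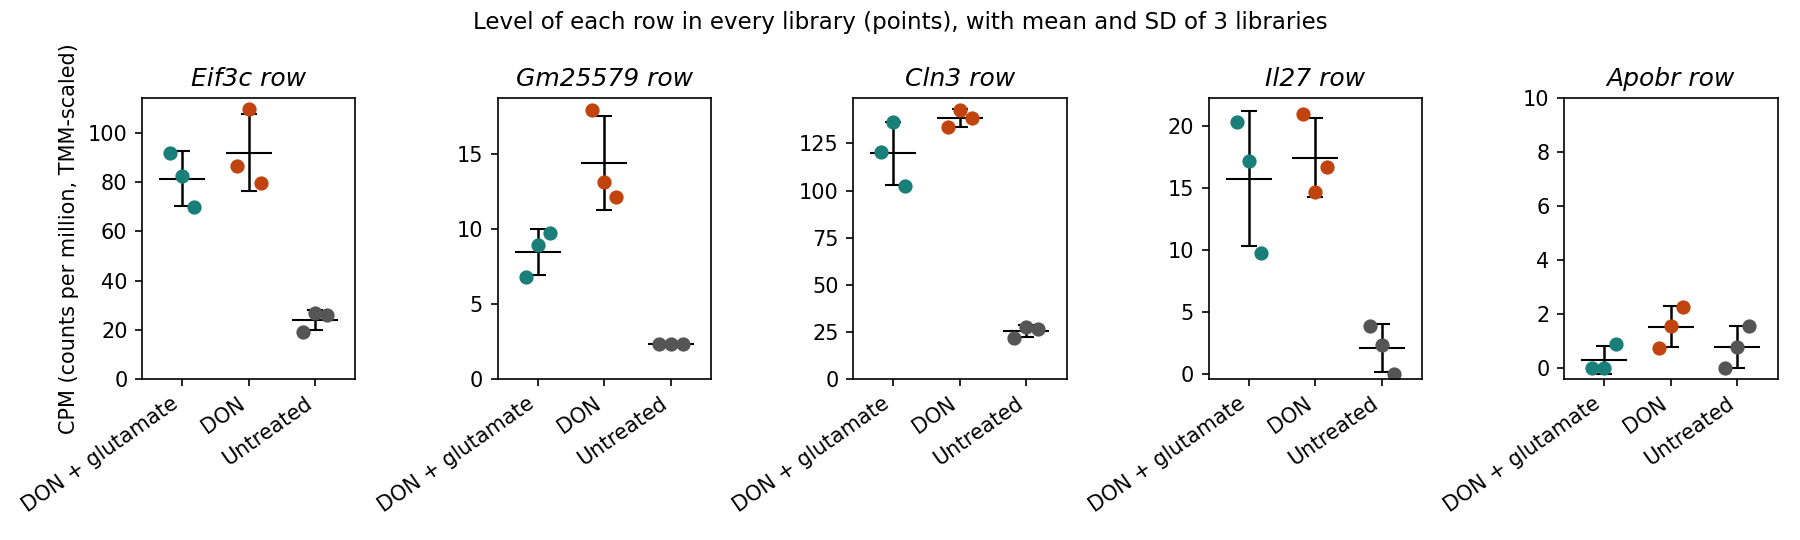
Level of the Eif3c, Gm25579, Cln3, Il27 and Apobr rows in CPM (vertical axes, each on its own scale) in DON plus glutamate, DON and untreated libraries. Points are single libraries, the horizontal tick is the mean and the bar the SD of 3 libraries; for the 4 minus-strand rows all treated libraries lie above all untreated ones, while the Apobr row stays under 3 CPM.

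The Cln3 row was the most abundant. It held 160, 183 and 116 counts with DON plus glutamate, 179, 185 and 183 with DON, and 28, 35 and 34 in untreated cells. The groups of treated and untreated libraries did not overlap, and the lowest treated library, DON plus glutamate replicate 3, is also the shallowest. In CPM the row averaged 120 ± 16.9, 139 ± 4.56 and 25.2 ± 3.18 in the same order (SD, n = 3 each). DON over untreated was 5.48-fold (log2 2.45 ± 0.15, SE), and DON plus glutamate over untreated was 4.76-fold (2.25 ± 0.16).

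The Eif3c row came next, with no annotated gene opposite it. It held 122, 111 and 79 counts with DON plus glutamate, 116, 142 and 105 with DON, and 25, 34 and 33 in untreated cells. No treated library came down to the level of any untreated one. Means were 81.4 ± 11.1, 92.0 ± 15.8 and 23.9 ± 4.05 CPM (SD, n = 3 each), for a DON over untreated value of 3.84-fold (log2 1.94 ± 0.18, SE). DON plus glutamate over untreated was 3.41-fold (1.77 ± 0.18).

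The Il27 row held 27, 23 and 11 counts with DON plus glutamate, 28, 19 and 22 with DON, and 5, 3 and 0 in untreated cells. The treated libraries were all above the untreated ones, and DON plus glutamate replicate 3 was the lowest of the treated. The count of 0 in untreated replicate 3 allows up to 2.34 CPM (3 counts). Means were 15.7 ± 5.45, 17.4 ± 3.20 and 2.07 ± 1.94 CPM (SD, n = 3 each). The row had the highest DON over untreated value of all 4731 rows tested, at 8.08-fold (log2 3.01 ± 0.50, SE). Without untreated replicate 1 it was log2 3.79, and the 2 untreated libraries left held 3 counts together. Without untreated replicate 3 it was log2 2.45. DON plus glutamate over untreated was 7.38-fold (2.88 ± 0.51). It was log2 3.66 without untreated replicate 1 and 2.32 without untreated replicate 3.

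The Gm25579 row held 9, 12 and 11 counts with DON plus glutamate, 24, 17 and 16 with DON, and 3 in each untreated library. The 3 groups did not overlap. Over all rows tested, 11.5% had all DON libraries above all untreated ones and 9.87% all DON plus glutamate libraries above them. All DON plus glutamate libraries lay below all DON ones in 6.07%, and the share with all of these together was not computed. Small nuclear RNA genes have many similar copies, and how the authors treated reads that map to several places is not given in the sources used here, so the row's counts are uncertain. Means were 8.48 ± 1.52, 14.4 ± 3.11 and 2.34 ± 0.02 CPM (SD, n = 3 each), and at 3 counts the small untreated SD says nothing of precision. DON over untreated was 5.97-fold (log2 2.58 ± 0.43, SE) and DON plus glutamate over untreated 3.50-fold (1.81 ± 0.48).

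Ranked by DON over untreated among the 4731 rows tested, Il27 stood 1st, Gm25579 4th, Cln3 6th and Eif3c 9th. By DON plus glutamate over untreated, which shares the untreated libraries, Il27 stood 2nd, Cln3 5th, Gm25579 9th and Eif3c 13th. By edgeR's quasi-likelihood test at an adjusted p under 0.05, 6.32% of rows tested were called in DON against untreated cells, 2.64% higher and 3.68% lower. In DON plus glutamate against untreated cells 3.23% were called, 1.42% higher and 1.82% lower. The split depends on scaling: for DON against untreated cells 125 rows were higher and 174 lower with TMM, and 180 and 126 with library totals. For DON plus glutamate against untreated cells the split was 67 and 86 with TMM, and 104 and 50 with library totals. Of rows tested, 11.5% had all DON libraries above all untreated ones, and 9.87% had all DON plus glutamate libraries above all untreated ones. The 4 rows were picked on this contrast, so their place in it is a description.

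The rows can also be set against their own untreated mean, library by library. In DON libraries the Eif3c row lay at 3.63, 4.59 and 3.33 times its untreated mean, the Gm25579 row at 7.68, 5.62 and 5.19 times, the Cln3 row at 5.31, 5.67 and 5.50 times and the Il27 row at 10.1, 7.10 and 8.06 times. In each of the 3 DON libraries the Eif3c row had the lowest and the Il27 row the highest of the 4 values. With DON plus glutamate the Eif3c row lay at 3.84, 3.45 and 2.92 times, Gm25579 at 2.90, 3.82 and 4.16 times, Cln3 at 4.78, 5.40 and 4.06 times and Il27 at 9.83, 8.27 and 4.70 times. There too Il27 was the highest in each library, while the lowest was Gm25579 in replicate 1 and Eif3c in the other two. All values of a row share 1 untreated mean, so their order is not repeated support. That mean rests on 5, 3 and 0 counts for Il27. Without untreated replicate 3, DON over untreated was log2 2.45 for Il27, 2.58 for Gm25579, 2.49 for Cln3 and 1.995 for Eif3c. With DON plus glutamate Il27 was then at 2.32 and Cln3 at 2.29.

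The Apobr row itself, which collects reads given to the strand of Apobr, held 0, 0 and 1 counts with DON plus glutamate, 1, 2 and 3 with DON, and 0, 1 and 2 in untreated cells. These groups overlap and the row was too low to be tested. Mir7059, a microRNA row in an intron of Cln3 that was singled out after its values were seen, held 0 counts in all with DON plus glutamate, 7 with DON and 1 in untreated cells, and no more than 3 in any library. Gm24596, a small nuclear RNA row in an intron of Eif3c, held 0 counts in every library.

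Because the genes differ in length, levels were compared per kb of annotated exon. On that scale the Eif3c, Cln3 and Il27 rows were close in DON libraries, at 26.2, 24.0 and 17.1 CPM per kb, and lower in untreated ones, at 6.81, 4.36 and 2.03 CPM per kb. With DON plus glutamate they stood at 23.2, 20.7 and 15.4 CPM per kb. Gm25579 reached 80.0 CPM per kb with DON plus glutamate, 136 with DON and 22.1 in untreated cells. That row is 106 bp long, and a read that only partly covers so short a gene may still count, so its level per kb is not comparable with the others.

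The division of the counts among the 4 rows shifted less than their sum. Cln3 held 53.1% ± 2.67 of the counts of the 4 rows with DON plus glutamate, 52.9% ± 2.82 with DON and 47.0% ± 1.37 in untreated cells (SD, n = 3 each). Eif3c held 36.2% ± 2.32, 34.9% ± 3.69 and 44.5% ± 3.17 in the same order. Gm25579 held 3.85% ± 1.13, 5.50% ± 1.23 and 4.40% ± 0.47, and Il27 6.85% ± 1.72, 6.68% ± 1.42 and 4.07% ± 4.10. For the rare rows the counting error is as wide as these shares: Il27 had 5 of 61 counts in untreated replicate 1, a share of 8.20% with an exact 95% binomial interval of 2.71 to 18.1%. For the count of 0 among 70 in untreated replicate 3, the same kind of interval reaches up to 5.13%, and the limit of 3 counts used above is 4.29%. Intervals and limits cover counting error only.

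**Figure D2:**
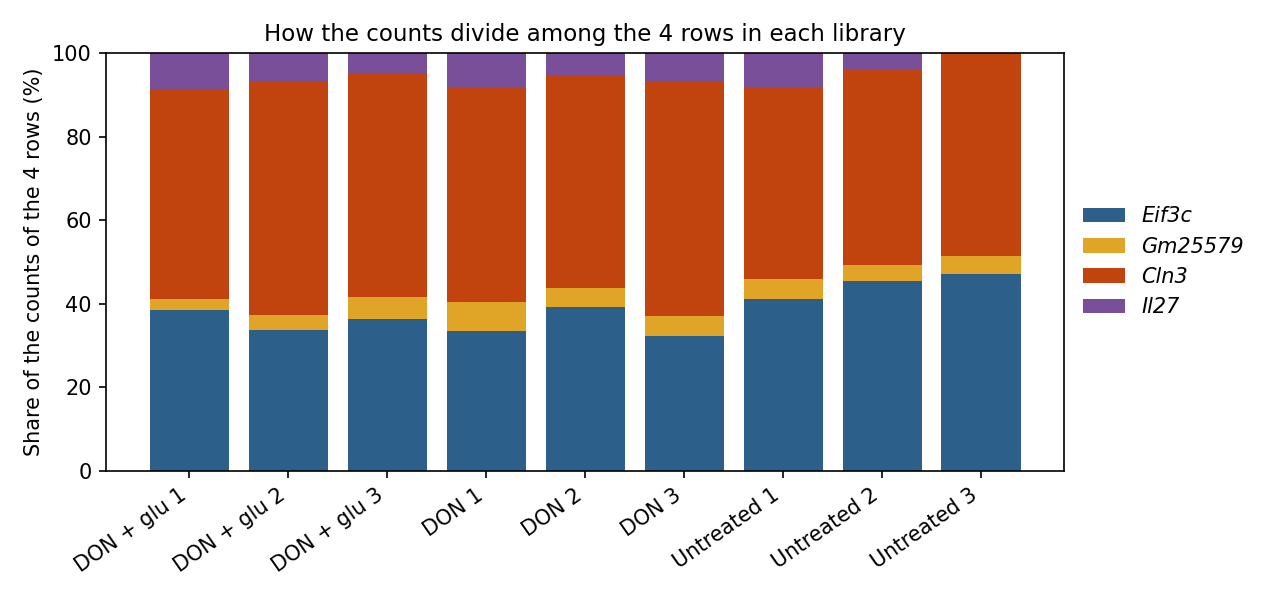
Share of the summed counts of the 4 rows (vertical axis, %) held by Eif3c, Gm25579, Cln3 and Il27 in each library, from DON plus glutamate on the left through DON to untreated on the right. Cln3 holds about as much as the other 3 rows together throughout, and Eif3c has its largest shares, 41.0 to 47.1%, in the untreated libraries.

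Per count of Eif3c, Cln3 had 1.31, 1.65 and 1.47 counts with DON plus glutamate, 1.54, 1.30 and 1.74 with DON, and 1.12, 1.03 and 1.03 in untreated cells. The 6 treated libraries all lay above the 3 untreated ones, which matches the smaller DON over untreated value of the Eif3c row. This ratio comes from the contrast used to choose the rows and was not tested.

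With glutamate added to DON, none of the 4 rows differed from DON alone beyond the test's threshold. This contrast, DON plus glutamate against DON alone, was not the one used to choose them, but it shares the DON libraries whose high counts were, so a lower value with glutamate is favoured by the choice. The test was edgeR's quasi-likelihood test over the whole table. At an adjusted p under 0.05, 0.148% of the 4731 rows were called, 5 higher (0.106%) and 2 lower (0.0423%). Cln3 was 0.87 times its DON level (log2 -0.20 ± 0.12, SE; edgeR adjusted p = 0.828), with a 95% interval of -0.49 to 0.08. Eif3c was at log2 -0.17 ± 0.14 (edgeR adjusted p = 0.897; interval -0.52 to 0.18) and Il27 at -0.13 ± 0.33 (0.967; -0.94 to 0.68).

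Gm25579 had the largest difference of the 4 in this contrast, and its libraries did not overlap: 9, 12 and 11 counts with DON plus glutamate against 24, 17 and 16 with DON. It was at log2 -0.77 ± 0.34 (SE), with a 95% interval of -1.59 to 0.05 on the 6 residual degrees of freedom, fewer than the test itself draws on. By edgeR the unadjusted p was 0.0312 and the adjusted p was 0.707, so it did not pass. The row passed the filter on low counts only with the DON libraries, the higher side of this contrast. A lower value with glutamate is therefore favoured by the filter too, and the p, the interval and the lack of overlap are no support for a difference. All DON plus glutamate libraries lay below all DON libraries in 6.07% of the rows tested and above them in 5.39%, and 6.72% had an unadjusted p under 0.05. With 9 to 24 counts in these libraries, the interval runs from a lower level to one slightly above that of DON alone.

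None of the tested neighbours of the 4 rows was called in any of the 3 contrasts. Over all rows tested, 6.32% were called in DON against untreated cells and 3.23% in DON plus glutamate against untreated cells. In DON plus glutamate against DON 0.148% were called. With 6 neighbours tested, none called is close to those shares and does not set the neighbours apart. Within 100 kb on each side the table has 14 other rows, of which 6 were tested besides the 4. In DON against untreated cells their log2 values (± SE) were 0.75 ± 0.39 for Rabep2, an endosomal Rab effector, 0.32 ± 0.20 for Atp2a1, a calcium pump, -0.10 ± 0.11 for 2510046G10Rik, an antisense RNA, 0.61 ± 0.42 for Sgf29, a chromatin reader, -0.24 ± 0.35 for the pseudogene Gm6939 and -0.24 ± 0.19 for Slx1b, a nuclease subunit. Their edgeR adjusted p in this contrast ran from 0.302 for Rabep2 to 0.784 for Gm6939. All but Gm6939 face an exon on the other strand, so their counts may be those of the opposite gene. Rabep2 and Atp2a1 face each other over 763 bp, 2510046G10Rik and Sgf29 over 169 bp, and Slx1b faces Bola2 over 360 bp. The values of these 6 rows are all below the smallest of the 4, 1.94 for Eif3c.

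The rows on either side of the span were too low to be tested. Atxn2l, next to Eif3c on the minus strand, held 11 counts in all with DON plus glutamate, 9 with DON and 14 in untreated cells. Nupr1, a stress-induced chromatin protein gene next to Il27, held 3, 4 and 1 counts in all in the same order. Neither had a gene opposite. Of the other rows with at least 10 counts over the 9 libraries, Sh2b1, a signalling adaptor, had 13, 6 and 3 counts in all, and Sult1a1, a sulfotransferase, 27, 27 and 21. Tufm had 0, 1 and 2.

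**Figure D3:**
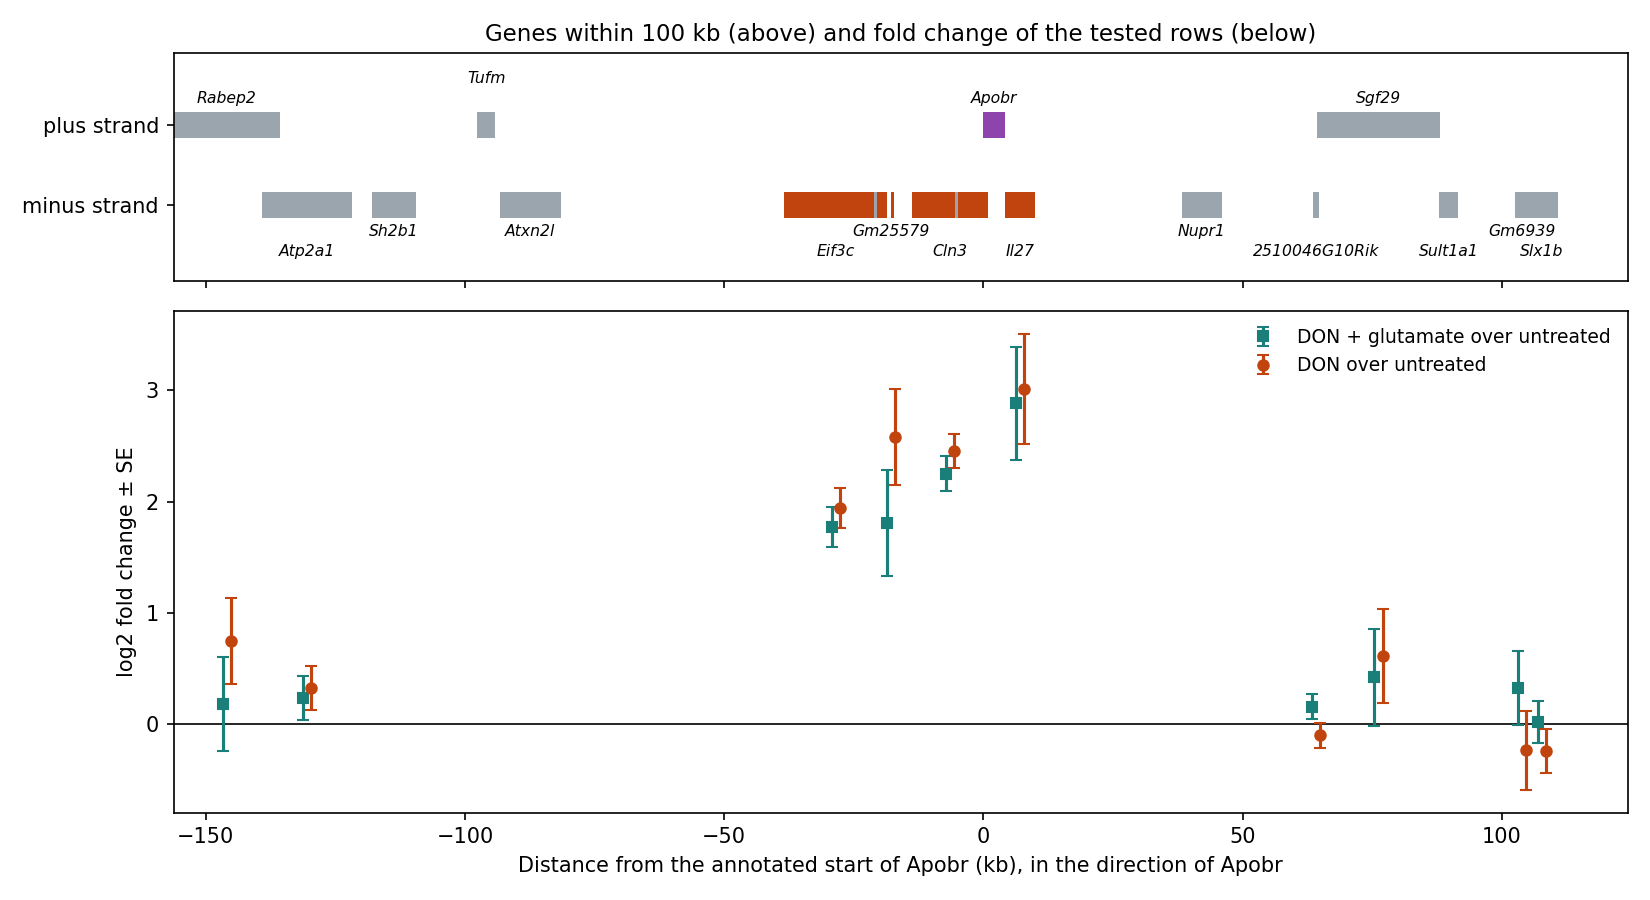
Genes within 100 kb of the span by strand (upper panel) and log2 fold change with its SE for the 10 rows tested (lower panel), against the distance in kb from the annotated start of Apobr. Squares are DON plus glutamate over untreated and circles DON over untreated; the 4 rows from Eif3c to Il27 lie between 1.77 and 3.01, and the 6 other rows between -0.24 and 0.75.

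Eif3c and Gm25579 belong to 382 rows tested that have no annotated gene opposite them and do not lie within 5000 bp beyond the end of one on the other strand. Of those 382 rows, 1.57% were called higher in DON than in untreated cells, against 2.64% of all rows tested. Eif3c and Gm25579 were chosen on this contrast and are among the 382 rows, so the first share is not free of that choice. The median log2 was 0.07, against 0.01 over all rows tested. By description, Gm25579 had the highest and Eif3c the next highest DON over untreated value among them, followed by Ints5, an Integrator subunit, at log2 1.47 ± 0.49 (SE). Eif3c was also the 9th most abundant of these rows, with a mean of 85.2 counts per library. The 5 most abundant were Gm28438 with a mean of 855 counts, Gm28437 with 459, Anp32b with 224, Gpr162 with 223 and Gm10222 with 216. Their DON over untreated values ran from log2 -0.27 for Gm10222 to 0.30 for Anp32b. Of these 5, Gm28438, Gm28437 and Gm10222 are pseudogenes, so their counts may belong to near-identical copies.

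**Figure D4:**
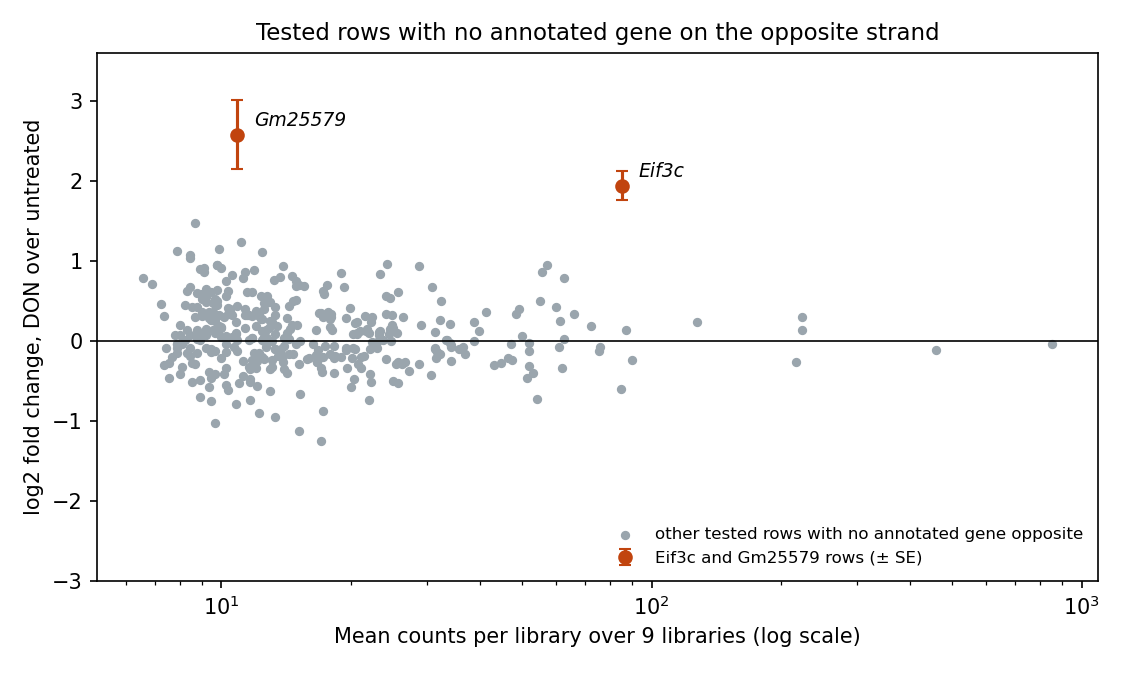
DON over untreated log2 fold change (vertical axis) against the mean counts per library (horizontal axis, log scale) for 382 tested rows. These have no annotated gene opposite and do not lie within 5000 bp beyond the end of one on the other strand. Bars are SE; Gm25579 at 2.58 and Eif3c at 1.94 lie above every other row, of which the highest is at 1.47.

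Small nuclear RNA rows give another setting for Gm25579. The table has 1383 such rows, of which 1222 had 0 counts in every library and 11 were tested. With 98 counts over the 9 libraries Gm25579 was the 9th most abundant. The other 10 tested ran in DON over untreated from log2 -0.76 ± 0.26 (SE) for Gm22249 to 0.82 ± 0.40 for Gm22973. Unlike Gm25579, all of these faced an exon or intron of a gene on the other strand, except Gm22973, which lay within 5000 bp beyond the end of one. Their counts may be those of the other gene, so they are not a like setting for Gm25579.

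The partners of the 4 genes gave little to compare. Of 13 other eIF3 subunits 4 were tested and 0 passed in any of the 3 contrasts by edgeR, the median DON over untreated log2 being -0.13. Eif3j1 and Eif3a, the most abundant, were at log2 -0.19 ± 0.11 and 0.37 ± 0.23 (SE). Eif3j1 lies opposite Spg11. Of 12 other neuronal ceroid lipofuscinosis genes 2 were tested, the lysosomal thioesterase Ppt1 at -0.11 ± 0.10 and the lysosomal membrane protein Mfsd8 at -0.06 ± 0.20, and 0 passed. Ppt1 lies opposite Cap1 and Mfsd8 opposite Gm2011. Of 11 other genes of the IL-27 and IL-12 family 2 were tested and 0 passed, Il12rb2 at -0.04 ± 0.21 and Stat3 at -0.26 ± 0.27. Ebi3, the partner of Il27, had 0 to 4 counts per library and its receptor chain Il27ra 0 to 2. Of 10 lipoprotein receptors Lsr alone was tested (0.28 ± 0.27, not passing), and the next most abundant, Lrp1 and Lrp8, had 1 to 6 and 0 to 10 counts per library. Il12rb2 lies opposite Serbp1, Stat3 opposite Stat5a and Lsr opposite Gm4673. Most members of each list were too low to be tested, so these counts speak for the tested rows only. Over all rows tested, 6.32% were called in DON against untreated cells and 3.23% in DON plus glutamate against untreated cells. In DON plus glutamate against DON 0.148% were called. None called among 4 or fewer rows is close to those shares and is no result about the partners.

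Il27 and Apobr are known from myeloid cells, and the summed level of myeloid markers overlapped between the groups. The summed counts of 10 markers ran from 394 to 480 with DON plus glutamate, 443 to 493 with DON and 398 to 475 in untreated cells. Nearly all of them lay in the Csf1r row, with 376 to 474 counts, which lies opposite 873 bp of Hmgxb3. Ptprc, Lyz2, Adgre1, Itgam, Tyrobp and Fcer1g were at 0 in every library. Endothelial marker rows summed to at most 3 counts and epithelial ones to at most 1 in any library, and the 8 smooth muscle marker rows to 100 to 139, 107 to 128 and 115 to 157 counts in the same group order. Of the smooth muscle markers 2 were tested, Tagln at log2 -0.23 ± 0.14 and Cald1 at -0.20 ± 0.36 (SE) for DON over untreated, and 0 passed. Over all rows tested 6.32% were called in that contrast, so none among 2 rows is close to that share.

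Over the 9 libraries the 4 rows tracked each other, with Pearson's r of log2 CPM from 0.857 for Gm25579 and Il27 to 0.988 for Eif3c and Cln3. The libraries fall into untreated and treated clusters and share their depth, so r describes that step only. Among rows outside the neighbourhood, those most like Cln3 by this measure were Gm7008 (r = 0.995), D10Wsu102e (0.994), Ccdc24 (0.989), Gm26856 (0.986) and 1600012H06Rik (0.985). They lie opposite Ifrd1, Aldh1l2, Slc6a9, Prmt3 and Phf10 in that order, on chromosomes 12, 10, 4, 7 and 17. Their DON over untreated values were log2 0.72 ± 0.08, 2.13 ± 0.08, 1.78 ± 0.07, 0.48 ± 0.08 and 0.85 ± 0.07 (SE). D10Wsu102e averaged 2364 ± 23.9 CPM with DON plus glutamate, 2551 ± 151 with DON and 583.9 ± 37.4 in untreated cells (SD, n = 3 each), far above the 4 rows.

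The rows most like Gm25579 were Kif3c (r = 0.977), Gm26856 (0.953), L3mbtl2 (0.951), Bmp2k (0.948) and Gm20652 (0.946). They lie opposite 1110002L01Rik, Prmt3, Chadl, Paqr3 and Arhgef2. Their DON over untreated values were log2 0.44 ± 0.08, 0.48 ± 0.08, 0.85 ± 0.21, 1.42 ± 0.18 and 1.86 ± 0.11 (SE), and in DON plus glutamate against DON they ran from -0.28 ± 0.20 for L3mbtl2 to -0.05 ± 0.09 for Gm20652.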

How the data were processed

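Per the submitters' processing notes, reads were processed with STAR and HTSeq on the genome build mm10; versions, annotation and strand setting are not given in the sources used here. The authors deposited raw counts of reads per gene row, 53379 rows for 9 libraries. Row identifiers were matched to GENCODE M21 (53274 matched). Low rows were removed (filterByExpr), TMM factors computed and edgeR's two-sided quasi-likelihood test run (edgeR 4.0.16, R 4.3.3), with Benjamini-Hochberg adjustment over 4731 rows, in 1 fit of 3 groups of 3 with 6 residual degrees of freedom. Standard errors follow from the test statistic, and 95% intervals use 6 degrees of freedom. The members, gene lists and alternatives were chosen with earlier results of these data known. Named rows are the members, rows within 100 kb with at least 10 counts, and the 5 rows most alike. The 5 most abundant of the 382 rows with nothing opposite, and called or most abundant list genes, are named too. Tufm, Nupr1, Mir7059, Gm24596, Ints5, Ebi3, Il27ra and single markers were named after their values were seen. Alternatives used DESeq2 1.42.0 and limma 3.58.1 (voom). Transcript sequences of small nuclear RNA genes are not reported here.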

Additional observations from a re-analysis of the deposited data

How the results depend on the processing

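The DON over untreated and DON plus glutamate over untreated values of Eif3c, Gm25579 and Cln3 moved by less than the spread between libraries in every alternative that gave a value: log2 1.79 to 2.03, 2.39 to 2.69 and 2.35 to 2.52 for DON, and 1.64 to 1.87, 1.68 to 1.95 and 2.15 to 2.35 for DON plus glutamate. Il27 ran from 2.45 to 3.79 and from 2.32 to 3.66 when 1 library was left out, the highest values being those without untreated replicate 1. Gm25579 and Il27 had no value under the stricter filter (30 counts in 3 libraries), nor Gm25579 for DON plus glutamate over untreated with only the 2 groups compared. In DON plus glutamate against DON none of the 4 rows passed in any alternative (adjusted p 0.668 to 1.0). Il27 ran there from -0.35 to 0.11 when 1 library was left out and changed sign when DON replicate 1 was absent (0.02) and when DON plus glutamate replicate 3 was (0.11); the cause was not tested. The number of rows called over the table moved more. At an adjusted p under 0.01 it was 136 for DON over untreated (299 at 0.05), 79 for DON plus glutamate over untreated (153) and 3 for DON plus glutamate against DON (7). The last was 15 with no filter, 2 by DESeq2, 3 by voom and 3 with only the 2 groups compared. With 1 library left out the 3 counts ran from 173 to 318, 88 to 178 and 1 to 11. The first was 183 without untreated replicate 1, 176 without untreated replicate 2, 173 without DON replicate 2 and 182 without DON replicate 3. The next was 99 without untreated replicate 2 and 88 without DON plus glutamate replicate 2, and the last was 1 without DON replicate 3, also 1 without DON plus glutamate replicate 2, and 11 if its replicate 3 was left out. Scaled by library totals instead of TMM, 180 rows were called higher and 126 lower in DON than in untreated cells (125 and 174 with TMM). For libraries with the same replicate number, r of the deviations from the group mean ran from -0.195 to 0.154 over 9 pairs, 1 of them above 0.1. Between libraries of unlike number it ran from -0.227 to 0.212, so this check showed no pairing by number. With the replicate number as a block, 221 rows were called for DON over untreated, 117 for DON plus glutamate over untreated and 6 for DON plus glutamate against DON. Depth limits what can be said of Gm25579 and Il27, with at most 28 counts in any library, and of the rows too low to be tested.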
